A study of Homo sapiens with 8 samples.

Results

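The positions described here are single bases, listed as N1-methyladenosine (m1A) sites, that the deposited annotation assigned both to a transcript on the + strand of the genome and to a transcript on the - strand. A position was taken when its base had at least 1 line for each strand, and read counts played no part in the choice. There were 288 such positions among 9962, or 2.89%, against 7174 positions listed on the + strand only and 2500 on the - strand only. They fell in 217 pairs of genes, as the annotation pairs them, on 23 chromosomes. Of the 431 genes named at them, 305 were found in RefSeq. RefSeq gave a span for both genes at 121 positions, and 42 of these lay outside the span of at least 1 of the genes, so the overlap there rests on the deposited annotation.

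The study transfected neuroblastoma cells, a cultured childhood tumour of the sympathetic lineage, with a control or with a small interfering RNA that targets TRMT6 (siTRMT6). The sample titles name the cells SK-N-BE, while the source and cell line fields name them SK-N-AS. Fragmented polyadenylated RNA was precipitated with an antibody against m1A, and input RNA was kept beside it, with 2 samples in each group. Counts came in 4 columns named by condition and number, and were taken as those of the m1A samples: control 1, control 2, siTRMT6 1 and siTRMT6 2. The labels do not say that the samples of a group came from separate cultures, so p-values measure only the spread between these samples. Neither the silenced gene nor an m1A level over input could be checked, since TRMT6 had no listed position and input values were not analysed here.

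m1A carries a methyl group on the Watson-Crick face of adenine. The TRMT6-TRMT61A enzyme, in which TRMT61A holds the catalytic site, writes it in the T loop of tRNAs and at some T-loop-like stems of mRNA. Neighbouring genes on opposite strands can share DNA in several ways: 2 genes may run towards each other and overlap at their 3′ ends (tail to tail), run apart from a shared promoter region (head to head), or a non-coding antisense RNA may be read across a coding gene. Where such genes overlap, the RNA of one strand has uracil wherever the RNA of the other has adenine. A read can therefore be given to one of the 2 genes only if its strand is known, and whether these libraries kept the strand is not stated in the sources used here.

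The base itself was read wherever a position fell inside a RefSeq promoter window of the GRCh38.p14 build, from 250 bases before to 50 after a transcription start. The deposited sites use hg38. Positions are counted from 1. The sequences below show the listed base as the single capital letter in 21 bases of the + strand, 5′ to 3′, so that the letter can be compared with the strand of each gene. The first group was listed for HIF1A and its antisense RNA HIF1A-AS1 (chr14:61695795-61695815 and chr14:61695799-61695819), for PCOLCE and PCOLCE-AS1 (chr7:100604121-100604141 and chr7:100604135-100604155), and for VIM and VIM-AS1 (chr10:17229954-17229974).
HIF1A / HIF1A-AS1, first position: ccgattcaccAtggagggcgc
HIF1A / HIF1A-AS1, second position: ttcaccatggAgggcgccggc
PCOLCE / PCOLCE-AS1, first position: cccggcaaccAggtgaccctg
PCOLCE / PCOLCE-AS1, second position: gaccctgaggAtgacgacgga
VIM / VIM-AS1: ctggccgaggAcatcatgcgc

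The second group lies between coding genes whose 5′ ends face each other: BCL2L12 and IRF3 (chr19:49665755-49665775), S100PBP and YARS (chr1:32817436-32817456 and chr1:32817438-32817458), NDUFAF7 and CEBPZ (chr2:37231693-37231713 and chr2:37231696-37231716), and RPAIN and NUP88 (chr17:5419639-5419659). In each pair the first gene is on the + strand.
BCL2L12 / IRF3: tttctttttgAtcgacttctt
S100PBP / YARS, first position: caggtcgatgAgacgggaaaa
S100PBP / YARS, second position: ggtcgatgagAcgggaaaagg
NDUFAF7 / CEBPZ, first position: tgcgaatttcAgcatgagtgt
NDUFAF7 / CEBPZ, second position: gaatttcagcAtgagtgtact
RPAIN / NUP88: ggcggccgccAtcttggccca

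The third group is BTG1, a coding gene on the - strand that inhibits cell proliferation, opposite a clone-named non-coding gene on the + strand (chr12:92145842-92145862 and chr12:92145846-92145866). A RefSeq promoter window of BTG1-DT, a symbol for a divergent transcript, also covers both bases. Whether it is the clone-named gene was not checked.
BTG1, first position: aggcgaagagAtgcaagcgcc
BTG1, second position: gaagagatgcAagcgccgtgc

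Every readable position had adenine on the + strand. Of the positions listed on both strands, 43 (14.9%) lay in a promoter window and 43 of these 43 were adenine on the +, so that the - transcript has uracil there. At a distance of 1 base the share with + adenine was 9.30% on the left and 16.3% on the right, and adenine made up 21.2% of all + strand bases in the promoter windows. The 43 positions covered only some kinds of pair. Of them, 22 had a non-coding gene on at least 1 strand and 7 lay in coding pairs that overlap head to head. A further 13 lay in coding pairs whose RefSeq spans do not touch, and 1 in a pair without spans. Coding pairs that overlap tail to tail were not among them, so no base was read there. Control reads were at 26 of them and siTRMT6 reads at 17.

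The same held for the positions listed on a single strand. Of those listed on the + only, 127 of 127 in promoter windows were adenine on the +. Of those listed on the - only, 341 of 341 were also adenine on the +, which is uracil in the RNA of the annotated gene. Promoter windows that overlapped gave the same base at 511 of 511 positions. For the 240 genes of the set that the RefSeq promoter table holds, the deposited strand was RefSeq's strand in 240. The base of the other members was not read, because no genome sequence was used. Reads given below under a - strand gene are those at its annotated position, and were not shown to come from its RNA.

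**Figure D1:**
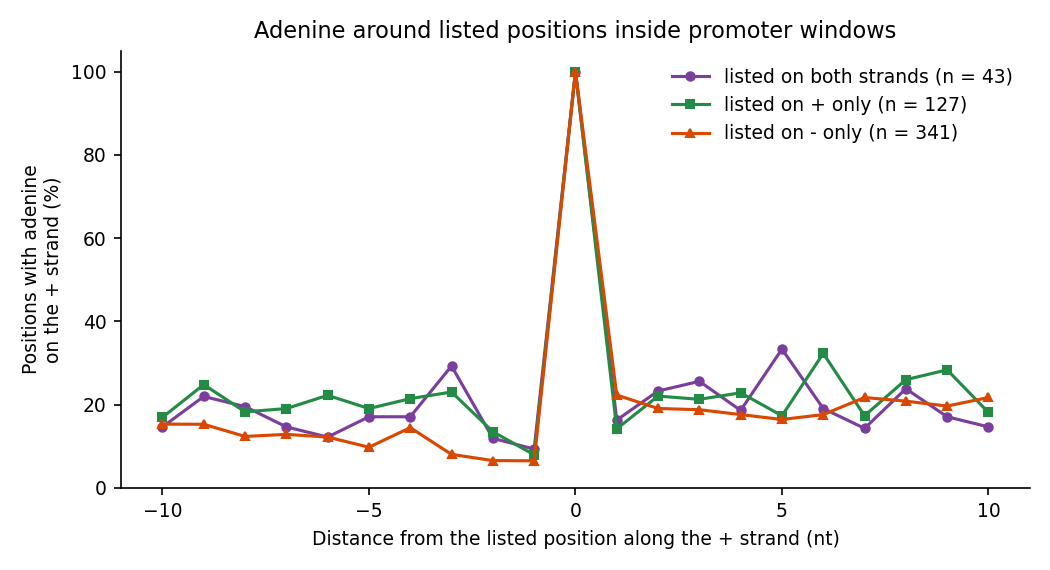
The share of positions with adenine on the + strand (vertical axis, %) is plotted against distance from the listed base along the + strand (nt), for positions listed on both strands, on + only and on - only, with n at distance 0. All 3 groups reach 100% at distance 0 and are at 9.30% or 16.3% one base to either side for the positions listed on both strands.

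A hairpin gave 1 further reading. CCDC42B, on the + strand, overlaps MIR7106 on the - strand, and the position at 113159150 of chromosome 12 had 16 reads in control 2. In the RefSeq hairpin, given 5′ to 3′ in the RNA letters of the - strand with the listed base in capitals, it is base 28 of 65, outside both mature miRNAs.
MIR7106: aucuugggagUgaucccaaca
This base is uracil in the hairpin and adenine on the + strand. In all, 6 listed positions lay in RefSeq hairpins, this 1 on both strands, 3 on + only and 2 on - only, and 6 of 6 were adenine on the +. MIR7106 and the RPAIN / NUP88 pair were singled out after their values were seen.

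Some of the adenines were the first base of an ATG. At 61695805 the capital A begins the ATG of HIF1A, the oxygen-regulated transcription factor subunit, and at 37231706 it begins an ATG in sequence listed as coding for NDUFAF7, a mitochondrial complex I assembly factor. At 5419649 the letter T on the - strand is the middle base of an ATG in sequence listed as coding for NUP88, a nuclear pore protein. Among the 39 members with 10 bases on both sides, 5 (12.8%) had the adenine at the start of an ATG on the + strand, against 10 of 124 (8.06%) of the + only positions and 6 of 320 (1.88%) of the - only positions. Of all + strand adenines in promoter windows, 5.13% start an ATG. The listed base was the middle of an ATG on the - strand, as for NUP88, at 3 of the 39 members. It was so at 12 of the 124 + only and 14 of the 320 - only positions. The ATGs of the members were not all start codons. At 92145852 the ATG is on the strand opposite BTG1, and at 231337851 it lies in sequence listed as 5′ UTR of SPRTN. GTTCNA, the T-loop letters with the methylated base last, ended at 0 of the 39 members, 0 of 124 and 1 of 320 (searched on the + strand, from the listed base backwards). It ends at 0.245% of + strand adenines in the windows, and 25.8% of the windows hold it on either strand. G and C made up 62.4% of the 20 flanking bases of members, 63.0% for + only and 70.2% for - only positions.

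Most pairs were a coding gene and a non-coding one. A coding gene on the + strand lay opposite a non-coding gene at 144 positions in 103 pairs and a coding gene on the - strand opposite a non-coding gene at 53 (18.4%) in 42 pairs. Coding genes were on both strands at 82 (28.5%, 64 pairs), and non-coding genes on both at 9 (3.13%, 8 pairs). Of the 197 positions with 1 coding and 1 non-coding gene, 73.1% had the coding gene on the +. The positions listed on a single strand were on the + in 74.2%, and their genes in 65.6%, while 50.7% of RefSeq promoter windows are on the +.

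**Figure D2:**
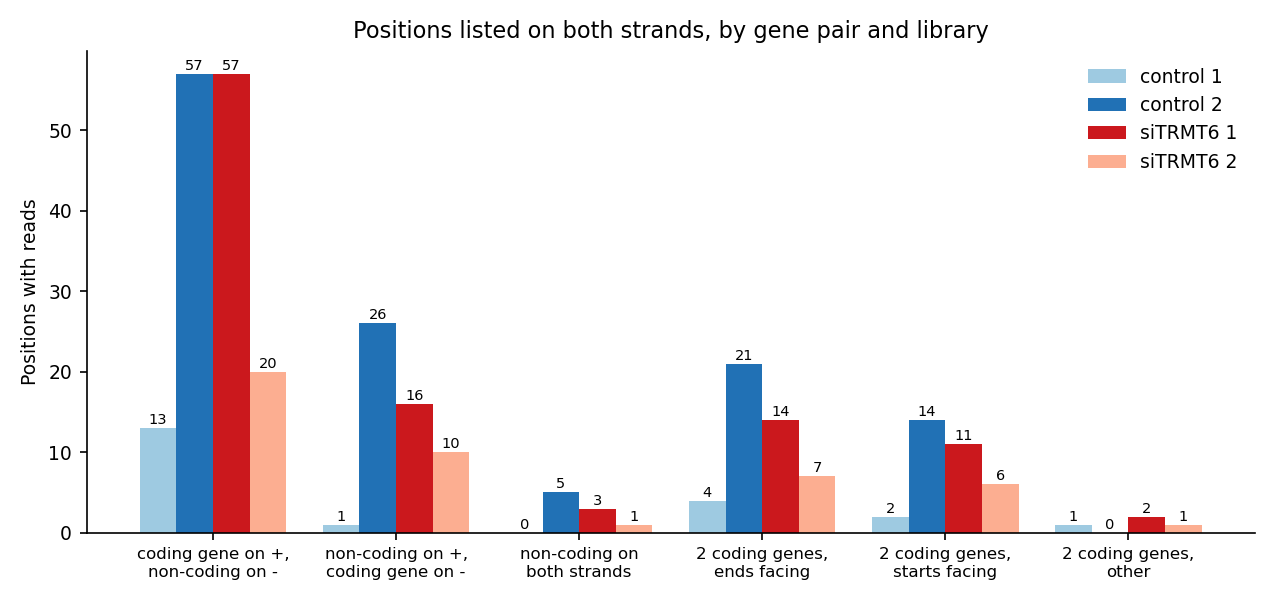
Bars give the number of positions with reads in each library (vertical axis) for 6 kinds of gene pair (horizontal axis). Control 2 and siTRMT6 1 hold the most positions in the first 5 kinds, with 57 and 57 where a coding gene on + faces a non-coding gene.

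The transcript region differed with the strand of the coding gene. Where it was on the +, the position lay in coding sequence at 94 of 144 (65.3%), in the 3′ UTR at 38 (26.4%) and in the 5′ UTR at 8 (5.56%). Where it was on the -, the order was 23 of 53 in the 5′ UTR (43.4%), 17 in coding sequence (32.1%) and 11 in the 3′ UTR (20.8%). A difference of the same direction was present among positions listed on a single strand, with 8.13% in the 5′ UTR on the + and 27.8% on the -. Coding sequence held 72.8% of those on the + and 44.4% of those on the -.

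**Figure D3:**
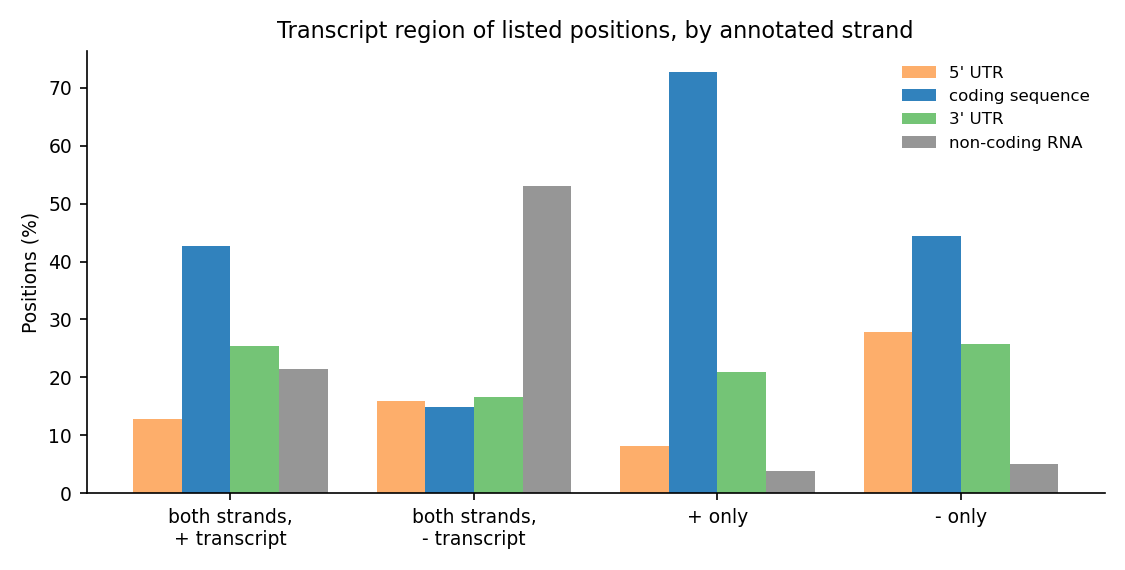
Bars show the percentage of positions (vertical axis) in each transcript region, for both transcripts of the positions listed on both strands and for positions listed on + or - only. A position with transcripts in several regions counts in each. Among the - transcripts of members, non-coding RNA is the tallest bar (53.1%), taller than the bars for coding sequence (14.9%) and both UTRs.

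The positions with the most reads lay opposite non-coding RNAs. NEFM, the medium neurofilament subunit, had 65 reads in siTRMT6 1 at 24914716 of chromosome 8 and none in the other 3 libraries. The base is 953 of the NEFM transcript, in coding sequence, and base 2 of the antisense transcript GS1-72M22.1. A position 17 nt away, listed for the + strand only, held 60 reads in control 2, so only the first of these neighbours overlapped the annotated antisense RNA.

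NUMA1, which organises microtubules at the spindle poles and is on the - strand, had 52 siTRMT6 1 reads at 72015995 of chromosome 11, and control 2 had 52 at 72016004. Both bases are in its coding sequence, opposite RP11-849H4.4. Control 1 and siTRMT6 2 had no reads at either base. MAZ, a zinc finger transcription factor, had 46 reads in siTRMT6 1 in its 3′ UTR opposite AC009133.12, and 22 in siTRMT6 2 in its coding sequence opposite AC009133.15. GAPDH, the glycolytic enzyme, had 32 reads in siTRMT6 1 in its 3′ UTR opposite RP5-940J5.9. GAPDH has many processed pseudogenes, and how reads that map to several places were counted is not given, so this value is uncertain.

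PRPH encodes peripherin, the intermediate filament of peripheral neurons, and held 3 of the positions, all in its coding sequence and all opposite RP11-161H23.9. At 49297547 of chromosome 12, control 1 had 28 reads, control 2 had 33, and the siTRMT6 libraries had 0 and 0. At 49295682 siTRMT6 1 alone had reads (34), and at 49295688, 6 nt further, control 2 alone (33). The groups did not overlap at the first of these positions, and each of the other 2 rested on 1 library. NEFL, the light neurofilament subunit on the - strand, had 32 reads in control 2 in its 5′ UTR opposite CTD-2168K21.2, and the nearest listed position, 197 nt away, had 19 in siTRMT6 2. Thus 3 of 5 neuronal filament genes (PRPH, NEFM and NEFL) were members, and 5 of 5 had a listed position of any kind. Of 18 noradrenergic neuroblastoma factors, 0 were members and 14 had any listed position. Of 11 RNA modification genes the numbers were 0 and 7. Members were 2.89% of all positions, and the share of all listed genes is not given here. A gene can be a member only where a transcript is annotated on the opposite strand, and the lists were chosen with earlier results known. These counts are therefore not read as a trait of the gene lists.

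Checked against markers of cell state, members included 1 of 8 mesenchymal genes (VIM), 0 of 11 noradrenergic genes and 0 of 4 blood cell genes. Over all positions the numbers were 2 of 8, 8 of 11 and 0 of 4. VIM, the mesenchymal intermediate filament vimentin, had 11 reads in siTRMT6 2 at 17229964 of chromosome 10, and no reads in the other 3 libraries.

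By the symbols of the deposited annotation, partners named as antisense RNAs were a minority. Among 145 non-coding partner genes, 21 had an -AS symbol (28 positions), 114 had a clone name (156 positions), and 10 had another name. RefSeq promoter windows of -AS symbols covered some positions with a clone-named partner, as for TRIM11-AS1, PPP1R35-AS1, PPP1R12A-AS1 and BICD1-AS1. Whether these are the clone-named genes was not checked, so the split by symbol does not give the number of antisense partners. PCOLCE, an enhancer of procollagen processing, had the most reads among the named antisense pairs: 31 in siTRMT6 1 at 100604131 of chromosome 7 and 32 in control 2 at 100604145, 14 nt apart, with no reads in control 1 or siTRMT6 2. Both bases lie past the RefSeq span of PCOLCE-AS1, which ends at 100604038. For HIF1A, control 1 had 7 reads at 61695805 of chromosome 14, and control 2 had 7 at 61695809. No siTRMT6 reads were listed at these 2 bases, 29 and 33 bases into the HIF1A transcript and 19 and 15 into HIF1A-AS1.

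SMARCA5, the ATPase of ISWI chromatin remodelling complexes, had 8 and 7 control reads at 143514026 of chromosome 4, and siTRMT6 1 had 9 at 143514038, 12 nt away. MDC1, a DNA damage mediator on the - strand, had 16 and 11 reads in siTRMT6 1 and 15 in control 2 at 3 coding positions opposite MDC1-AS1. FDPS, an enzyme of the mevalonate pathway, had 16 and 17 reads in control 2 and 7 in siTRMT6 2 opposite RUSC1-AS1. In all 3 of these gene pairs both conditions had reads, at different bases. Some partners belong to small RNA families. RPL23A, a ribosomal protein gene with many pseudogenes, had 12 reads in siTRMT6 2 and 15 in siTRMT6 1, 3 nt apart, opposite a gene listed as SNORD4A. C12orf57 had 16 reads in siTRMT6 1 and 15 in control 2 opposite one listed as RNU7-1. The RefSeq spans of SNORD4A (bases 28722582 to 28722653 of chromosome 17) and RNU7-1 (bases 6943816 to 6943878 of chromosome 12) do not hold these positions.

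Coding genes overlapping tail to tail held 40 positions in 31 pairs, by RefSeq gene spans. Reads per position ran from 7 to 24 with a median of 12.5, and the positions lay late in the transcripts, at a median of base 1631 on the + and base 2234 on the -. Another 5 positions lay in pairs whose ends face each other but whose RefSeq spans are 1512 to 11088 nt apart. CCNK, which encodes the cyclin that activates CDK12 and CDK13, held 5 positions in its coding sequence over the 3′ UTR of CCDC85C on chromosome 14. Near 99510446 these were 10 reads in siTRMT6 2, 20 in control 2 and 16 in control 1 at neighbouring bases, and near 99502955 they were 11 in control 2 and 9 in siTRMT6 2. Both clusters thus held reads of both conditions.

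RFXANK, a subunit of the RFX activator of MHC class II genes, and NR2C2AP share their 3′ UTRs, and the position at 19201823 of chromosome 19 had 9 reads in control 1, 11 in control 2 and none in the siTRMT6 libraries. PAQR4 and PKMYT1, an inhibitory kinase of CDK1, had 24 reads of control 2 and 18 of siTRMT6 1 at bases 89 nt apart. PRELID1, a mitochondrial lipid transfer protein, and MXD3 had 18 reads in siTRMT6 1, 11 in siTRMT6 2 and 20 in control 2 within a few bases of their overlapping 3′ UTRs. WDR6 had 22 in control 2 over the coding sequence of DALRD3. CCND1, the cyclin of the G1 phase, had 31 reads of control 2 and 27 of siTRMT6 1 in its 3′ UTR opposite ORAOV1, in a pair whose RefSeq spans are apart. The 31 reads were the most at any 1 position of a coding pair.

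Coding genes with their 5′ ends facing held 33 positions in 27 pairs: 14 where the RefSeq spans overlap head to head and 19 where they lie 61 to 774 nt apart. Reads ran from 5 to 18 with a median of 8, against a median of 12 for the 45 positions with ends facing. Of the 33, 22 lay within 100 nt of the start of at least 1 of the transcripts, and of the 45, 0 did. BCL2L12 and IRF3, the interferon regulatory factor, had 15 control 2 reads at 49665765 of chromosome 19, and siTRMT6 2 had 8 at 49665659, with both transcripts in their 5′ UTRs. ZGPAT and ARFRP1 had 14 reads in control 2, and PRR19 and PAFAH1B3 had 10 in control 2. In S100PBP and YARS, the latter a tyrosyl-tRNA synthetase, the neighbouring bases shown above had 8 reads in siTRMT6 1 and 8 in control 2, 2 nt apart. NDUFAF7 and CEBPZ had 9 reads in control 2 and 8 in control 1, 3 nt apart. RPAIN and NUP88 had 7 in siTRMT6 1.

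A position was inside the coding sequence of both genes in every listed transcript in 4 cases, in TYMS with TYMSOS and in FAM120A with FAM120AOS. RIC8B, with a clone-named coding gene, had 1 more, with the 5′ UTR of RIC8B in some transcripts and 6 reads in control 1. TYMS, thymidylate synthase, had 9 reads in control 2 and 7 in siTRMT6 1 there, 6 nt apart, and 19 in control 2 at another position opposite the 3′ UTR of ENOSF1. FAM120A had 9 reads in control 2 and 6 in siTRMT6 2. One pair had a gene inside the other, EMC6 with the readthrough gene P2RX5-TAX1BP3, with 6 reads in siTRMT6 1. The 9 positions with non-coding genes on both strands had 5 to 12 reads.

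By library, members had reads at 21 positions in control 1, 123 in control 2, 103 in siTRMT6 1 and 45 in siTRMT6 2. As shares of members these were 7.29, 42.7, 35.8 and 15.6%, against 8.22, 42.9, 36.2 and 14.2% of all positions. The reads at members summed to 218, 1635, 1339 and 408, from listed totals of 8655, 46007, 40771 and 13812, which cover listed positions only and are not sequencing depths. Of the members, 284 (98.6%) had reads in 1 library and 4 in 2 libraries, both of the same condition. Over all positions 98.6% also had reads in 1 library. Reads were somewhat higher at members, with 13.9% at 20 reads or more against 7.88% of the other positions, and medians of 10 and 9 reads. Counts this small carry large counting error, and a value resting on 1 library has no replicate spread.

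**Figure D4:**
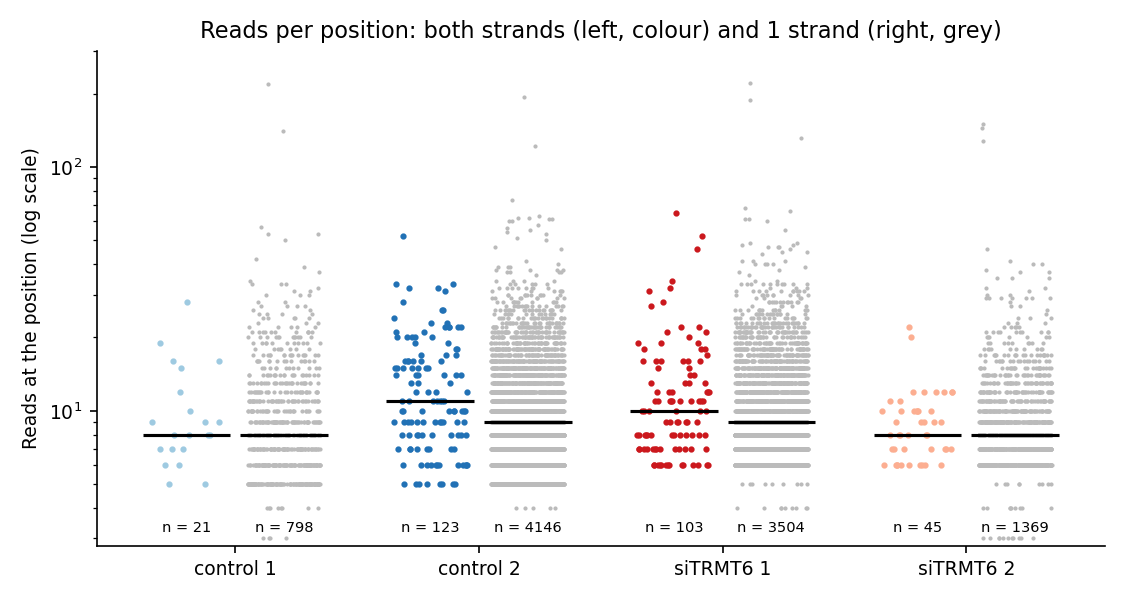
Each point is a position with reads in that library, placed by its reads on a log scale (vertical axis). Coloured points are listed on both strands, grey points on 1 strand, and black lines are medians, which are 8, 11, 10 and 8 reads for members and 8, 9, 9 and 8 for the others.

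Per the authors' deposited values, 147 members (51.0%) were higher after siTRMT6 and 141 lower, against 49.6% of all positions higher and 50.4% lower at an adjusted p under 0.05. By kind of pair, the share higher was 52.8% where the coding gene on the + faced a non-coding gene, and 49.1% where it was on the -. In coding pairs 41 of 82 were higher. All 288 passed an adjusted p of 0.05 in the authors' deposited table, where 100% of all positions did (percentage to 3 digits), so their count carries no information on the members. Each member had reads of 1 condition only, so its direction is the condition of the library that holds its reads. Without control 2, 87.5% of the members that kept reads were higher, and without siTRMT6 1, 24.2%. These shares are fixed by how many members each library holds, and do not test the direction.

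Tested with both libraries of each condition in edgeR's quasi-likelihood test, 1 member could be tested after the filter on low counts, and it was called. Over all positions 34 were tested and 22 called (64.7%), 13 higher and 9 lower. The member was PRPH at 49297547, whose 4 counts are given above, and it was lower after siTRMT6 with an edgeR adjusted p of 0.00602. It passed the filter through the control libraries, where it is high, so the count of 1 called among 1 tested says nothing of the members as a set. The fold changes of PRPH below are not read as the size of a change. The sources used here do not say whether a listed 0 means no reads or no call. The authors' deposited table gives PRPH a log2 fold change of -7.12. With DESeq2 the adjusted p was 0.0712 and 0 of 34 positions were called. Leaving out any 1 library, edgeR called 0 positions, and the adjusted p of PRPH ranged from 0.403 (without siTRMT6 1) to 0.660 (without control 2). Each of these fits leaves 1 condition with 1 library, which is assumed to vary like the other condition, and the fitted log2 fold change of PRPH stayed between -7.75 and -7.91. That fitted value depends on the prior count. The other 3 positions with reads in 2 libraries were RFXANK and SMARCA5, with control reads, and NDUFS7, a complex I subunit, with 12 and 7 reads after siTRMT6 and none in the controls in its 3′ UTR opposite AC005329.7. They did not pass the filter on low counts.

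Reads of the other condition were often a short distance away. Of the members, 104 (36.1%) had a listed position of the other condition within 200 nt, against 29.7% of all positions. The share was 30.6% within 100 nt (27.0% of all positions) and 39.2% within 500 nt (32.4%). It rested on the 2 libraries with the most reads, and was 10.7% without control 2 and 20.4% without siTRMT6 1. Of the 127 members with any listed position within 200 nt, 0 had that nearest position in the same library. The same count was not made over all positions, 98.6% of which had reads in 1 library. It is therefore not read as a trait of the members.

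The same positions were also grouped by gene pair, which adds no separate evidence. Of the 217 pairs, 56 held 2 or more positions (127 positions in all) and 46 of these had reads of both conditions. The matching share for genes of positions listed on a single strand was not computed, so this count is not read as a trait of the pairs. Reads of 3 libraries were present in 12 pairs and of all 4 libraries in 0. In the 33 pairs with 1 position per condition, the bases were 1 to 1094 nt apart with a median of 40, and 19 pairs were at most 50 nt apart.

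The closest neighbours differed by a few bases. MYL12A, a regulatory light chain of myosin, had 6 reads of control 1 and 6 of siTRMT6 1 at adjacent bases (3255812 and 3255813 of chromosome 18). EIF4B, a translation initiation factor, had 12 reads in siTRMT6 2 and 21 in control 2 at bases 3 nt apart. At the bases listed for BTG1, which are uracil in BTG1 RNA, control 2 had 11 reads and siTRMT6 2 had 7, 4 nt apart. In each of these pairs a control and a siTRMT6 library had reads almost at the same place, and neither had reads at the other's base.

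Reads of 3 libraries met in some pairs. BRD2, a bromodomain reader of acetylated histones, had 20 reads in siTRMT6 1 at 32972694 of chromosome 6, 19 in control 1 at 32972715 and 23 in control 2 at 32972737, in its 5′ UTR. DDIT4, a stress-induced inhibitor of mTORC1, had 13 reads in siTRMT6 1, 20 in control 2 and 12 in control 1 within its 3′ UTR. ATXN2L had 14 reads in control 2, 14 in siTRMT6 1 and 7 in siTRMT6 2 within 14 nt of coding sequence, and 28 in siTRMT6 1 and 26 in control 2 at bases 39 nt apart in its 3′ UTR. HCN2, a pacemaker channel, had 5 reads from control 1, 5 from control 2 and 6 from siTRMT6 1. In 33 pairs with positions of both siTRMT6 1 and control 2, summed reads of siTRMT6 1 were divided by those of control 2. The ratio was 0.515 to 1.80 with a median of 0.941. Reads were not scaled, and the listed totals were 40771 for siTRMT6 1 and 46007 for control 2, so the median is not read as a change. Pairs where only 1 of these libraries had listed reads cannot enter, so the ratio does not describe them.

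**Figure D5:**
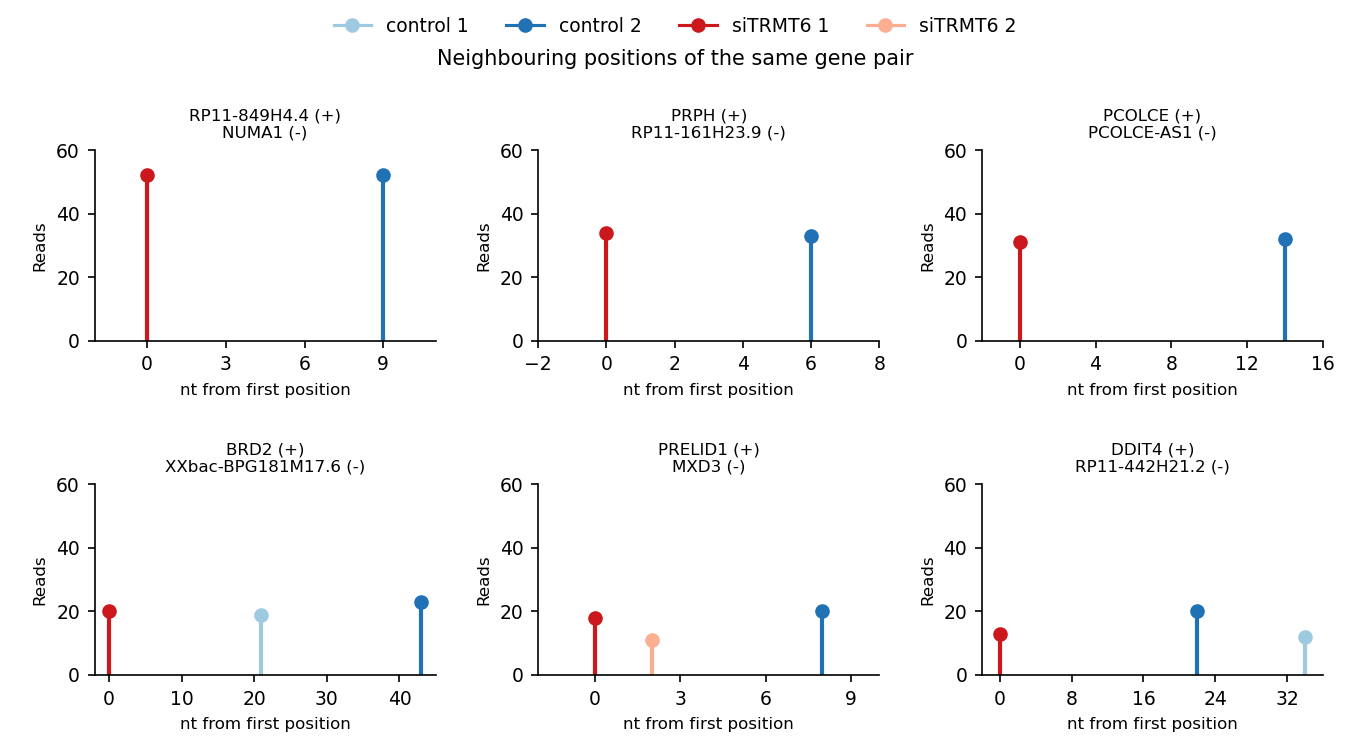
For 6 gene pairs, each stem gives the reads (vertical axis) at 1 position, placed by its distance in nt from the first position shown (horizontal axis) and coloured by library. Neighbouring stems belong to different libraries, as in NUMA1 with 52 and 52 reads 9 nt apart and PCOLCE with 31 and 32 reads 14 nt apart.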

How the data were processed

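The deposited table held 25539 lines, 1011 of them for the positions listed on both strands. The submitters' processing notes name FastQC 0.11.3, STAR and the hg38 build. How sites were called, counted and tested is not stated in those sources. Its deposited values, per the file headers, are read counts per position in 4 columns, with the authors' log2 fold change and p-value, raw and adjusted. The deposited count columns do not name m1A or input, and were taken as m1A counts because the table lists m1A sites.

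Sites were read as counted from 0. Each position's gene, region and transcript base came from the authors' annotation, and gene spans, promoter windows and hairpins from RefSeq (GRCh38.p14). The first gene listed per strand defined a pair. Genes not marked as 5′ UTR, coding or 3′ UTR were non-coding. Counts were tested with edgeR 4.0.16 in R 4.3.3 over all positions: TMM, filterByExpr with a minimum count of 10, and Benjamini-Hochberg adjustment at 0.05. The steps were tested on simulated data. The simulated counts had reads in every library, unlike these positions, so they do not show how edgeR behaves here. DESeq2 1.42.0, equal library sizes, no filter, a replicate term and leaving out libraries were alternatives. The depth of the libraries is unknown, and intervals were not computed.

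Named positions were those passing the filter or with reads in 2 libraries, those with the most reads overall or per arrangement, those in the fixed gene lists, those in pairs with 2 or more positions, and the closest neighbours. Of the last kinds only examples are printed, and 1 position that the rule names is not reported here. The members and lists were chosen with earlier results of these data known.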

Additional observations from a re-analysis of the deposited data

How the results depend on the processing

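The 1 member called by edgeR stayed called with equal library sizes. It was 0 with DESeq2 (PRPH adjusted p 0.0712), 0 with no filter (0 of 9962 positions called, and 0 members at an unadjusted p under 0.05), and 0 with the replicate number as a block (adjusted p 0.784). Leaving out each library gave 0 to 0 called members. The replicate numbers are not said to pair samples. Over 34 positions the deviations of same-numbered libraries correlated at 0.275, with only 2 numbers. Tail to tail positions fell from 40 to 20 when the arrangement came from transcript regions, which need the 3′ UTR in both genes, and head to head went from 14 to 18. The share with the other condition nearby was 30.6% within 100 nt, and 10.7 to 34.4% on leaving out each library. The share higher after siTRMT6 was 51.0% scaled by listed reads and 24.2 to 87.5% on leaving out each library. Members had reads of 1 condition only, so scaling could not move this share, and the other values follow from the members per library. The share with + strand adenine was 9.30% if coordinates were read as counted from 1, an alternative chosen after seeing the data, and 100% without any 1 library. Few reads per position and 1 library per position limit every comparison between conditions.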
